A study of Mus musculus with 10 samples.

Results

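The collagen genes were taken as every gene symbol in the deposited counts of mouse jejunum that starts with Col, a number, the letter a and a number. Of 24062 symbols in the files 45 matched, and 44 of them encode collagen chains. The remaining symbol, Col4a3bp, encodes a ceramide transfer protein and was left out of the counts below. Of the 44 collagens 43 were tested, and Col2a1, the cartilage fibril chain, had a single count in 1 library and was removed by the filter on low counts. Jejunum was collected at postnatal day 5 from wild-type C57BL/6 mice (WT) and from C57BL/6 mice with the genotype KSR23, with 5 libraries in each group. In KSR23 mice a ROSA26 cassette with both subunits of interleukin-23 (IL-23) is switched on by a cre recombinase under the K14 promoter, which is active in keratinocytes. Krt14, the gene of that promoter, had 55 to 173 counts in the jejunum libraries (1.81 to 4.88 CPM, counts per M of the TMM-scaled library total), and which cells made the cytokine was not tested. The labels name no other allele or treatment for either group. The study calls the libraries biological replicates, and the labels tie no library to an animal. Each p-value sets a difference between the groups against the spread between these libraries. The whole jejunum was homogenised, so fewer cells of a type and less RNA per cell cannot be told apart in any value below.

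Collagens are secreted proteins in which 3 chains wind into a triple helix, and each chain has its own gene. Fibrillar collagens give the intestinal wall its tensile strength, type IV collagens form the sheet of the basement membrane under epithelium, endothelium and muscle, and type VI collagens form beaded microfilaments next to cells. FACIT collagens decorate the surface of fibrils, and multiplexins link basement membranes to the underlying stroma. In the gut wall the main sources are fibroblasts, smooth muscle and endothelium, and the chains pass through a set of enzymes that hydroxylate, fold, trim and crosslink them.

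The libraries held 25.5 to 60.9 M counts, and 3 facts about them bear on all that follows. Replicates 4 and 5 of each group lay between the other libraries of the group. At 9737 genes above 5 CPM each library would be the highest or lowest of its group at 40% of genes if the 5 were exchangeable. This share was 8.54% and 18.4% for WT replicates 4 and 5, 11.7% and 9.91% for KSR23 replicates 4 and 5, and 45.7% to 75.6% for the other 6 libraries. Whether replicates 4 and 5 came from animals of their own was not tested, and if they did not, the SDs, intervals and p-values over 5 libraries are too small. The counts of called collagens and each called collagen are therefore given with replicates 1 to 3 alone as well. Counts for the lists of cell markers are given with all libraries only. Libraries also differed within groups in genes of high GC content, as described with the type I chains. Counts of 4 Y-linked genes summed to 207, 171, 16.1, 182 and 171 per M counts across the WT replicates. For KSR23 these sums were 148, 0.289, 0.0317, 84.1 and 0.0244. Every KSR23 sum lay below those of WT replicates 1, 2, 4 and 5, so differences that go with this share cannot be fully told apart from genotype. A fit that includes this Y-linked share is therefore given beside the main comparison for the collagens and for some of the other genes.

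Most collagen genes were not called as differing between KSR23 and WT jejunum. The 7 called ones were 2 chains of type IV collagen of the basement membrane, 2 of type VI, 1 of type IX, Col18a1 and Col28a1. By the likelihood ratio test (LRT) of edgeR with Benjamini-Hochberg adjustment over all 17632 genes tested, 5 collagens were lower in KSR23 (Col4a3, Col4a6, Col6a5, Col6a6 and Col9a1) and 2 were higher (Col18a1 and Col28a1). The 5 lower collagens were 11.6% of those tested, against a background of 8.76% of all genes called lower. The 2 higher ones were 4.65%, against 9.73% of all genes. By the quasi-likelihood F test (QLF) of edgeR 3 were lower and 2 were higher, where the background was 6.91% and 8.47%. DESeq2 called 6 lower and 2 higher (background 9.95% and 10.7%). The CPM of all KSR23 libraries lay below all WT libraries for 5 collagens (Col4a3, Col4a6, Col6a6, Col9a1 and Col12a1; background 6.99%) and above them for 0 (background 7.41%). The median log2 fold change (KSR23 over WT) was -0.05 over the 43 collagens and 0.03 over all genes.

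With replicates 1 to 3 alone no collagen was called by either edgeR test, where 1.35% of all genes were called lower and 2.01% higher by LRT and 0.238% and 0.574% by QLF. In that smaller comparison 4 of 43 collagens had an unadjusted p under 0.05 by each edgeR test (13.2% of all genes by LRT and 11.8% by QLF), and the median log2 fold change of the collagens was 0.03 (0.04 for all genes). The log2 fold changes of the uncalled chains described below were then 0.74 for Col1a1, 0.24 for Col1a2, -0.42 for Col5a1, 0.23 for Col5a2, 0.36 for Col4a1 and -0.01 for Col4a2. They were 0.10, -0.05, 0.07 and -0.59 for Col6a1 to Col6a4, -0.82 for Col12a1 and -0.63 for Col14a1. With library totals left unscaled 1 collagen was called higher and 5 lower (background 8.02% and 10.5%). With offsets that remove the trend of each library with GC content, a fit added after the libraries were seen, 0 were called higher and 6 lower (background 8.7% and 11.2%), and the median of the collagens was -0.32 against -0.08 for all genes. With the Y-linked share in the fit 1 was called higher (Col18a1) and 1 lower (Col6a6), while the calls over all genes fell to 4.46% higher and 5.73% lower. With the replicate number as a block 1 was called higher and 3 lower (background 6.14% and 6.35%).

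**Figure D1:**
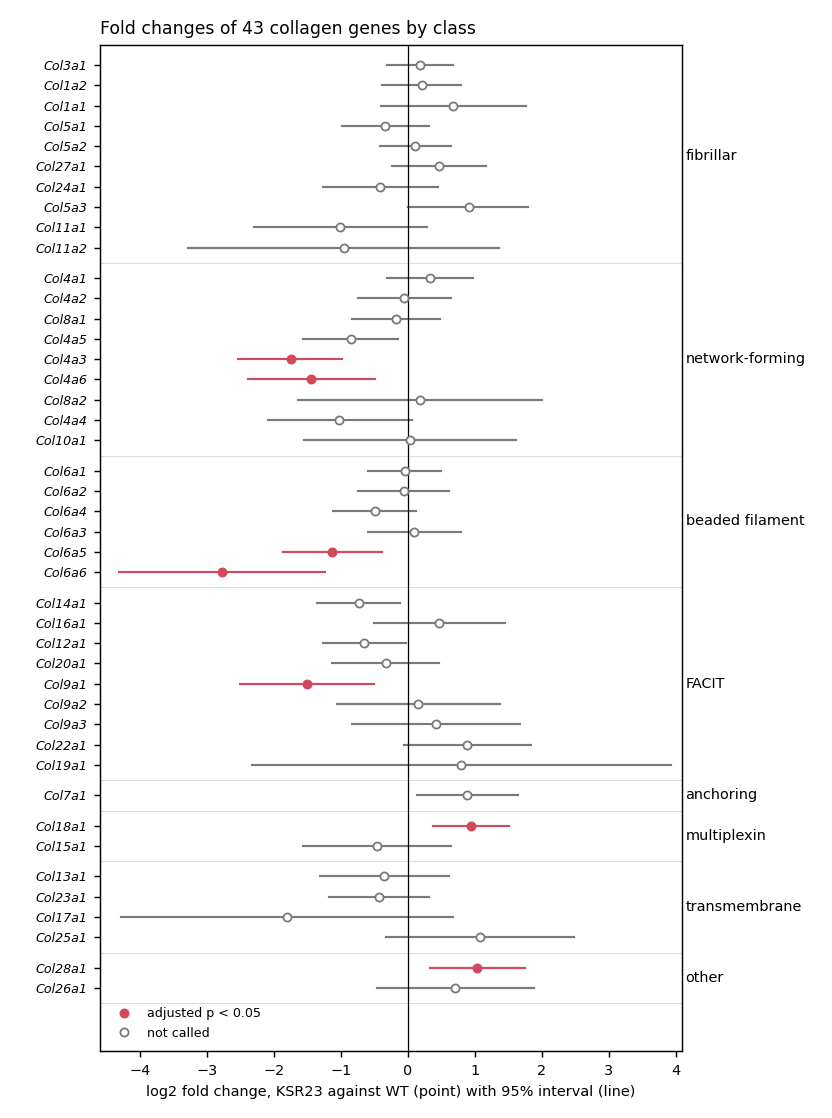
Log2 fold change of each tested collagen gene between KSR23 and WT (horizontal axis; points) with its 95% interval (lines), grouped by collagen class and ordered within a class by level per kilobase in WT. Filled red points are the 7 genes with an adjusted p under 0.05 by LRT, 5 to the left of 0 and 2 to the right, and all 10 fibrillar chains are open.

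Collagen transcripts together made up 0.166%, 0.206%, 0.102%, 0.185% and 0.147% of all counts in the 5 WT libraries and 0.254%, 0.166%, 0.112%, 0.211% and 0.131% in the 5 KSR23 libraries. The ranges overlapped, and the median was 0.166% in both groups. The levels were very uneven among the genes: 12 collagens had a mean of 20 CPM or more in at least 1 group, 17 had a highest group mean of 1 to under 20 CPM, and 15 stayed under 1 CPM in both groups. Divided by the length of the merged exons, the mean WT level was highest for Col3a1 (113 CPM per kb), followed by Col6a1 (38.5), Col1a2 (31.9), Col1a1 (16.6), Col4a1 (15.5) and Col6a2 (12.2 CPM per kb). The type I and type III genes Col1a1, Col1a2 and Col3a1 together took 51.1% of the collagen counts in WT replicate 3, 58.4% to 59.6% in the other WT libraries, and 60.5% to 61.8% in KSR23.

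None of the 10 tested fibrillar collagens was called by LRT, QLF or DESeq2, where LRT called 8.76% of all genes lower and 9.73% higher, so 0 of 10 is not far from the background. At an unadjusted p under 0.05 LRT found 1 (Col5a3) and QLF 0, against 30% and 29.6% of all genes. Col3a1, the single chain of type III collagen and the most abundant collagen of this tissue, had 718, 709, 382, 700 and 629 CPM in WT and 783, 613, 743, 743 and 679 CPM in KSR23 (replicates 1 to 5 throughout). WT replicate 3 was the lowest of the 10 libraries, and the other 9 formed 1 range. Its log2 fold change was 0.18 (95% interval -0.31 to 0.68, adjusted p = 0.682 by LRT; 0.28 with replicates 1 to 3 alone).

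Type I collagen, the main fibril of most connective tissue, joins a pair of chains from Col1a1 with a chain from Col1a2. Col1a2 had 175, 203, 135, 182 and 158 CPM in WT and 266, 224, 98.3, 239 and 161 CPM in KSR23. Col1a1 had 44.7, 188, 69.9, 134 and 54.4 CPM in WT and 280, 186, 26.8, 202 and 95.3 CPM in KSR23. Both genes were highest in KSR23 replicate 1 and lowest in KSR23 replicate 3, so the KSR23 libraries spanned the WT range on both sides. The log2 fold change was 0.21 for Col1a2 (95% interval -0.38 to 0.80) and 0.68 for Col1a1 (95% interval -0.40 to 1.77), and neither passed LRT (adjusted p = 0.69 and 0.437). For Col1a1 the interval still holds a change of 3.41-fold upward and 1.32-fold downward, whereas for Col3a1 it ends at 1.6-fold upward.

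The type V chains, which nucleate type I fibrils and set their diameter, also overlapped between the groups. Col5a1 had 44.1, 57.5, 93.0, 48.8 and 44.9 CPM in WT and 69.7, 34.3, 38.3, 51.3 and 34.4 CPM in KSR23 (log2 fold change -0.34, 95% interval -0.98 to 0.31). Col5a2 had 33.6, 28.5, 18.5, 33.8 and 33.1 CPM in WT and 33.9, 28.4, 30.3, 31.9 and 35.3 CPM in KSR23 (log2 fold change 0.11, 95% interval -0.42 to 0.65). Apart from WT replicate 3, the Col5a2 libraries lay within 28.4 to 35.3 CPM. The scarcer Col5a3 was at 0.771 to 1.38 CPM in WT and 0.79 to 2.96 CPM in KSR23, and the change of 0.91 on the log2 scale missed the threshold (adjusted p = 0.161). The remaining tested fibrillar genes Col27a1, Col24a1, Col11a1 and Col11a2 had log2 fold changes of 0.46, -0.41, -1.01 and -0.96, with adjusted p of 0.307 to 0.63.

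**Figure D2:**
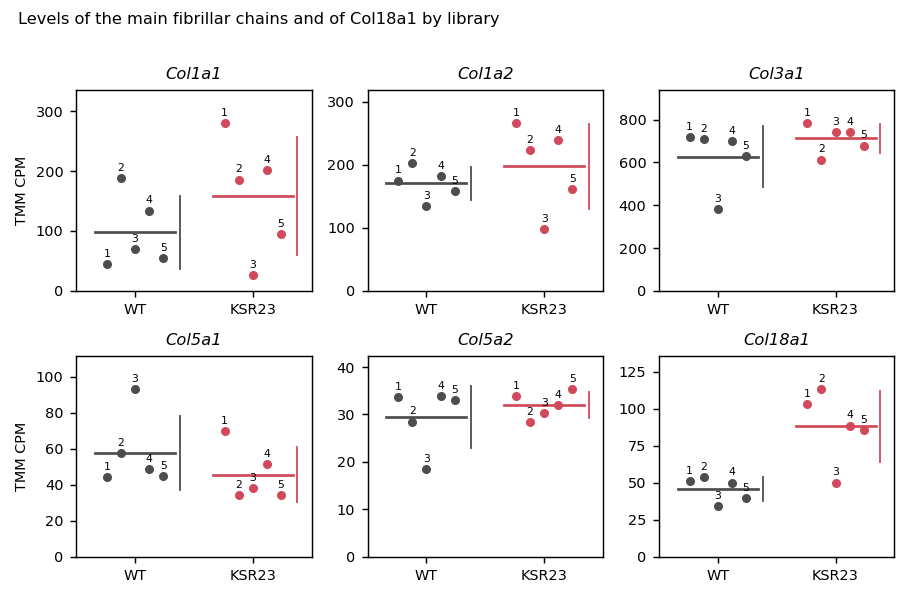
TMM-scaled CPM (vertical axes, starting at 0) of 5 fibrillar chains and of Col18a1 in each library, numbered by replicate, with the group mean (horizontal line) and SD (vertical line, n = 5). The fibrillar chains overlap between WT and KSR23, Col1a1 spreads from 26.8 to 280 CPM within KSR23, and 4 of 5 KSR23 libraries lie above all WT libraries for Col18a1.

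Ratios between 2 chains are free of library scaling and were tested for 6 pairs, of which Col3a1 to Col1a1 joins chains of different molecules and the others chains that assemble together, by a two-sided exact permutation test of log2 count ratios (252 splits, smallest possible p 0.00794). None differed after adjustment over the 6 pairs. The count ratio of Col1a1 to Col1a2 was 0.255, 0.929, 0.520, 0.736 and 0.345 in WT and 1.05, 0.832, 0.273, 0.843 and 0.593 in KSR23. The difference of mean log2 ratios was 0.39 (95% interval -0.73 to 1.5, exact permutation p = 0.413, adjusted p = 0.826). The pair Col4a1 to Col4a2 came nearest, with ratios of 1.77, 2.80, 1.46, 2.32 and 1.78 in WT and 2.34, 2.55, 3.2, 2.63 and 2.93 in KSR23. The log2 difference was 0.46 (95% interval 0.04 to 0.88, exact permutation p = 0.0476, adjusted p = 0.286), and the groups overlapped. Without WT replicate 2 the log2 difference of this pair was 0.59 and its adjusted p fell to 0.0476 (exact permutation). The other 4 pairs, Col3a1 to Col1a1, Col5a1 to Col5a2, Col6a1 to Col6a2 and Col6a3 to Col6a1, had log2 differences of -0.31, -0.48, 0.07 and 0.06, and adjusted p of 0.826 to 0.921 by the same exact permutation test. With replicates 1 to 3 alone (smallest possible p 0.1) the exact permutation p ran from 0.3 to 0.9.

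The libraries with the lowest type I ratios were also those in which genes of high GC content were low. Across 713 genes with more than 58% GC in their transcripts, the median log2 deviation of a library from the mean of its group was -0.936, 0.693, 0.531, 0.223 and -0.428 in WT and 0.602, 0.399, -1.266, 0.44 and -0.16 in KSR23. Col1a1 (58.9% GC) was low relative to Col1a2 (55.7% GC) in WT replicates 1 and 5 and KSR23 replicate 3, the libraries where high-GC genes were low. WT replicate 3 went against this order, since high-GC genes were high in it while its ratio of 0.520 lay below that of KSR23 replicate 5 (0.593). The same 3 libraries had the highest count ratios of Col6a1 to Col6a2 (3.87, 3.42 and 5.72, against 1.30 to 2.71 elsewhere). These 2 chains are close in GC content (56.7% for Col6a1 and 56.2% for Col6a2), and the slightly richer chain was the relatively high one. Col4a1 (57.7% GC) and Col4a2 (60.6% GC) differ more, and their ratio had no such order over all libraries. The part of GC content in the spread was not tested. With the GC trend removed, the log2 fold change of Col1a1 was 0.48 (adjusted p = 0.419) and that of Col3a1 was 0.12 (adjusted p = 0.799) by LRT.

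**Figure D3:**
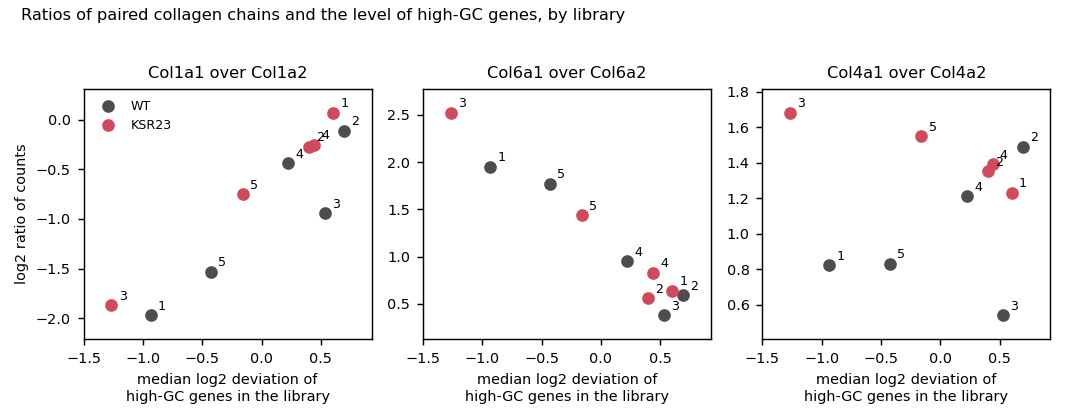
Log2 count ratio of 3 pairs of collagen chains (vertical axes) against the median log2 deviation of high-GC genes in the same library (horizontal axes), 1 numbered point per library, WT in grey and KSR23 in red. The ratio of Col1a1 to Col1a2 rises along the horizontal axis, with WT replicate 3 lower than other libraries of a similar horizontal position. That of Col6a1 to Col6a2 falls. That of Col4a1 to Col4a2 has no such order over all libraries, and within KSR23 it falls from 1.68 in replicate 3 to 1.23 in replicate 1.

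In type IV collagen Col4a3 and Col4a6 were called, and neither the abundant Col4a1 and Col4a2 nor Col4a5 and the scarcest chain, Col4a4, were. Whether the chains differed from each other in their change was not tested. The 6 genes lie as 3 head-to-head pairs, and each pair is read outward from a shared start region. Col4a1 and Col4a2 (chromosome 8), which form the network found in nearly all basement membranes, share 22 bases at their first exons in the mm10 annotation. Col4a3 and Col4a4 (chromosome 1) are separated by 71 bases, and Col4a5 and Col4a6 (chromosome X) by 1308 bases. Col4a3, Col4a4 and Col4a5 chains form a second network, best known from kidney and lung, and Col4a5 and Col4a6 chains join the first network in smooth muscle basement membranes.

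The common chains were not called. Col4a1 had 83.7, 136, 89.2, 119 and 85.4 CPM in WT and 201, 110, 76.2, 170 and 90.0 CPM in KSR23 (log2 fold change 0.33, 95% interval -0.31 to 0.97, adjusted p = 0.534 by LRT). Col4a2 had 47.3, 48.5, 61.2, 51.5 and 47.9 CPM in WT and 85.9, 43.3, 23.8, 64.5 and 30.7 CPM in KSR23 (log2 fold change -0.05, 95% interval -0.75 to 0.65). The KSR23 libraries spread to both sides of WT for both genes, with replicates 1 and 4 highest and replicate 3 lowest.

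Col4a3 was lower in KSR23, with the smallest adjusted p of any collagen. It had 5.48, 2.58, 1.76, 4.23 and 4.13 CPM in WT and 1.10, 0.580, 1.47, 1.01 and 1.24 CPM in KSR23, or 48 to 177 against 18 to 77 counts. All KSR23 libraries lay below all WT libraries, with the nearest pair at 1.47 and 1.76 CPM. The log2 fold change was -1.75 (SE 0.39), which is 3.37-fold lower with a 95% interval of 1.98-fold to 5.76-fold (adjusted p = 0.000249 by LRT, 0.00742 by QLF). It was called with each library left out in turn, was -1.61 with replicates 1 to 3 alone (unadjusted p = 0.0195, adjusted p = 0.233) and -1.81 with the GC trend removed (adjusted p = 8.5e-05). With the Y-linked share in the fit it was -1.25 and not called (adjusted p = 0.124).

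Col4a6 was lower too. It had 2.69, 2.30, 2.50, 2.28 and 1.43 CPM in WT and 1.34, 0.806, 0.755, 0.142 and 1.07 CPM in KSR23, and the groups did not overlap. KSR23 replicate 4 was far below the others, with 8 counts. The log2 fold change was -1.44 (SE 0.49, adjusted p = 0.0241 by LRT), and by QLF it was not called (adjusted p = 0.0583). The call was lost without WT replicate 1, 2, 3 or 4 or without KSR23 replicate 2 (adjusted p = 0.0563 to 0.0679), and with replicates 1 to 3 alone (-1.32, adjusted p = 0.27). It was also lost with the Y-linked share in the fit (-1.4, adjusted p = 0.133 by LRT).

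The partners of these chains were also lower in most KSR23 libraries but were not called by LRT. Col4a5 had 7.18, 9.97, 5.36, 6.68 and 6.65 CPM in WT and 5.35, 2.35, 5.45, 4.62 and 2.06 CPM in KSR23 (log2 fold change -0.85, 95% interval -1.56 to -0.14, adjusted p = 0.0872), and passed without KSR23 replicate 3 (-0.99, adjusted p = 0.0422 by LRT). Col4a4 had 0.805, 0.566, 0.404, 0.634 and 0.601 CPM in WT and 0.0569, 0.193, 0.517, 0.390 and 0.367 CPM in KSR23 (log2 fold change -1.02, 95% interval -2.09 to 0.06, adjusted p = 0.198). For each of them 4 of 5 KSR23 libraries lay below all WT libraries and replicate 3 did not. Per 100 counts of Col4a1, a description set after the values were seen, there were 1.90 to 6.55 counts of Col4a3 in WT and 0.526 to 1.93 in KSR23, and 1.67 to 3.22 counts of Col4a6 in WT and 0.0835 to 1.19 in KSR23. On the same scale the groups overlapped for Col4a5 (5.59 to 8.58 in WT, 2.13 to 7.15 in KSR23), Col4a4 (0.416 to 0.962 in WT, 0.0282 to 0.678 in KSR23) and, narrowly, Col4a3. The network-forming genes outside type IV, Col8a1, Col8a2 and Col10a1, had log2 fold changes of -0.17, 0.18 and 0.03 and were not called.

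The start regions of the lowered type IV genes are shown because they belong to the called basement membrane chains. They are RefSeq promoter windows of build GRCm38.p6, printed 5′ to 3′ on the minus strand and cut to bases upstream of all annotated exons. Capitals mark matches on either strand to 4 motifs. The STAT motif, for the factors that carry signals of IL-23 and IL-22, was searched as TTCNNNGAA. The GC box was searched as GGGCGG. The remaining motifs were the CCAAT box and the TATA box, the latter searched with the letters TATAAA. The first sequence is the whole of the 71 bases between the starts of Col4a4 and Col4a3 (chr1:82586850-82586920) and the second lies before Col4a6 (chrX:141474077-141474326).
Col4a4-Col4a3: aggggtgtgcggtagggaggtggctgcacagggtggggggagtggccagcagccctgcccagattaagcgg
Col4a6: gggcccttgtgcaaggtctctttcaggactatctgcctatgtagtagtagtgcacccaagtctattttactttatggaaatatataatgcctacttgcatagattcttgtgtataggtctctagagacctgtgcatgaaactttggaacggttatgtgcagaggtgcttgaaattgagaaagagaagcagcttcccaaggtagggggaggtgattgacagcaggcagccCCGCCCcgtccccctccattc
The shared Col4a4-Col4a3 stretch holds none of these motifs and the Col4a6 window holds 1 GC box. RefSeq windows of 250 bases were found for 35 of the 45 symbols. Of these 35 genes 5.71% held the STAT motif, 60.0% a GC box, 37.1% a CCAAT box and 14.3% a TATA box, against 8.13%, 35.4%, 37.5% and 14.3% of all 27025 genes with a window, a gene being counted where any of its windows held the motif. A match describes letters only and does not show binding.

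In type VI collagen Col6a5 and Col6a6 were called, and the difference between chains was not tested. Per kilobase the mean WT level of Col6a5 (1.5 CPM per kb) was close to that of Col6a3 (1.76), while Col6a6 was the scarcest of the 6 (0.0651 CPM per kb). Col6a1, Col6a2 and Col6a3 form the standard microfilament, and Col6a4, Col6a5 and Col6a6 encode long chains that can take the place of Col6a3. The latter 3 genes stand in a row on chromosome 9 on the minus strand, with 27917 bases between Col6a6 and Col6a5 and 28810 between Col6a5 and Col6a4.

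Col6a1, second to Col3a1 in level per kilobase, had 196, 166, 87.8, 166 and 173 CPM in WT and 145, 130, 196, 137 and 157 CPM in KSR23. Col6a2 had 50.6, 110, 67.4, 86.0 and 50.7 CPM in WT and 93.0, 88.0, 34.3, 77.0 and 57.9 CPM in KSR23. Col6a3 had 13.1, 27.7, 19.7, 18.5 and 16.7 CPM in WT and 29.2, 21.8, 10.9, 26.4 and 14.4 CPM in KSR23. The groups overlapped for all 3 genes, with log2 fold changes of -0.04 (95% interval -0.59 to 0.50), -0.06 (-0.74 to 0.62) and 0.10 (-0.59 to 0.79), so a change of 2-fold in either direction lies outside each interval. Col6a4 had 16.1, 32.7, 20.7, 21.8 and 16.7 CPM in WT and 19.5, 15.4, 10.1, 18.6 and 13.0 CPM in KSR23 (log2 fold change -0.49, 95% interval -1.12 to 0.13, adjusted p = 0.306 by LRT).

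Col6a5 was lower in KSR23. It had 16.6, 15.9, 7.52, 14.6 and 15.3 CPM in WT and 4.99, 3.64, 12.0, 5.81 and 5.67 CPM in KSR23. WT replicate 3 and KSR23 replicate 3 crossed, and the other 4 libraries of each group were well apart. Col6a5 had a log2 fold change of -1.13 (SE 0.38), which is 2.18-fold lower with a 95% interval of 1.31-fold to 3.63-fold (adjusted p = 0.0218 by LRT, 0.043 by QLF). The call held without WT replicate 3 or KSR23 replicate 3 and was lost when any of the other 8 libraries was left out (adjusted p = 0.0549 to 0.0838). With replicates 1 to 3 alone it was -0.92 (adjusted p = 0.612), and with the GC trend removed -1.28 (adjusted p = 0.00383). With the Y-linked share in the fit it was -0.9 and not called (adjusted p = 0.374 by LRT). Per 100 counts of Col6a1, a description set after the values were seen, there were 8.47, 9.61, 8.57, 8.78 and 8.82 counts of Col6a5 in WT and 3.44, 2.81, 6.11, 4.25 and 3.61 in KSR23. On that scale WT replicate 3 stood with the other WT libraries and the groups did not overlap.

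Col6a6 had the largest fold change of the called collagens at the lowest level. It had 17, 30, 16, 15 and 10 counts in WT and 19, 1, 0, 1 and 2 counts in KSR23, which is 0.375 to 1.06 CPM against 0 to 0.27 CPM. The groups did not overlap in CPM, and most of the KSR23 counts came from replicate 1. KSR23 over WT gave -2.78 on the log2 scale (SE 0.79, adjusted p = 0.00449 by LRT, 0.0378 by QLF), and -4.22 without KSR23 replicate 1. It was called with each library left out in turn and with the Y-linked share in the fit (adjusted p = 0.0367), and was -2.61 with replicates 1 to 3 alone (unadjusted p = 0.0174, adjusted p = 0.218).

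**Figure D4:**
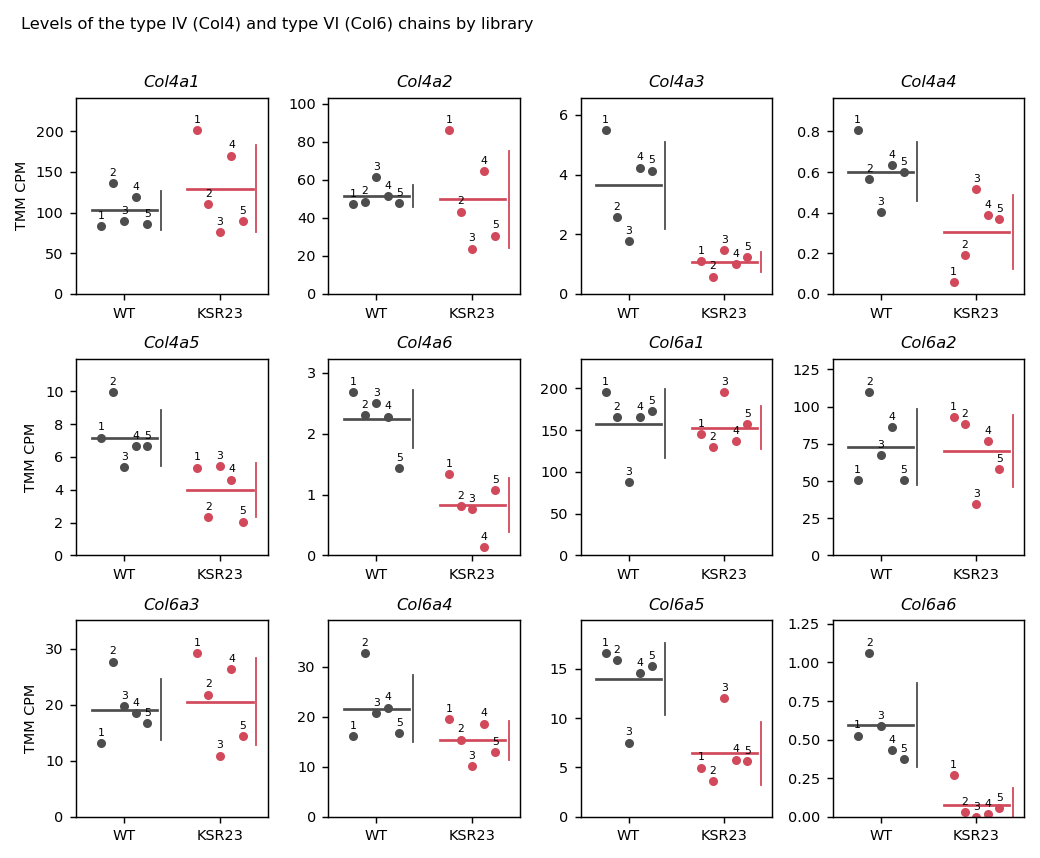
TMM-scaled CPM (vertical axes, each starting at 0 with its own range) of the 6 type IV and 6 type VI genes in each library, numbered by replicate, with the group mean (horizontal line) and SD (vertical line, cut at 0, n = 5). Col4a3, Col4a6 and Col6a6 separate the groups, Col6a5 does so except for the replicates numbered 3, and Col4a1, Col4a2, Col6a1, Col6a2 and Col6a3 overlap.

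The windows before both lowered type VI genes follow (Col6a5 at chr9:105960644-105960893 and Col6a6 at chr9:105828161-105828335), on the minus strand and with the same marking.
Col6a5: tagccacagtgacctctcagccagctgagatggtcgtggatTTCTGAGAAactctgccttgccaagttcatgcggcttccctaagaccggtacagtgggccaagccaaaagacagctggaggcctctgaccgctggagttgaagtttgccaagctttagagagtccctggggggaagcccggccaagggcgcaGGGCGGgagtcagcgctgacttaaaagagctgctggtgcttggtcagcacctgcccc
Col6a6: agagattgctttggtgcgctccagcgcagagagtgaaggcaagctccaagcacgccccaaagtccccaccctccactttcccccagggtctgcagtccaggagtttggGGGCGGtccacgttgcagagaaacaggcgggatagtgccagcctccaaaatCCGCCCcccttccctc
The Col6a5 window has 1 STAT motif and 1 GC box, and the Col6a6 window has 2 GC boxes and no STAT motif.

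Among the 9 FACIT genes tested 1 was called. Col9a1, a type IX chain best known from cartilage, had 27, 14, 13, 55 and 15 counts in WT and 23, 6, 6, 10 and 16 counts in KSR23, which is 0.477 to 1.58 CPM against 0.177 to 0.452 CPM. The groups did not overlap in CPM, and WT replicate 4 was the highest. Col9a1 was at -1.51 on the log2 scale (SE 0.51, adjusted p = 0.0224 by LRT, 0.0574 and not called by QLF). The call was lost without WT replicate 1 or 4 or KSR23 replicate 2 or 4 (adjusted p = 0.0535 to 0.148), and with replicates 1 to 3 alone (-1.18, adjusted p = 0.508). It was also lost with the Y-linked share in the fit (-1.19, adjusted p = 0.309 by LRT). The other type IX chains, Col9a2 and Col9a3, had log2 fold changes of 0.16 and 0.42 and were not called. Of 8 cartilage and bone markers, Matn3 and Sp7 had 0 counts, Matn1 and Acan at most 2 and 7 counts, and 3 of the 5 tested were lower in KSR23 (background 8.76%). Bglap, 1 of these 3, and the uncalled Acan passed the filter on low counts through WT libraries alone, so this share cannot be weighed against the background. Ibsp had 15 to 31 counts in WT and 0 to 5 in KSR23, Bglap 2 to 11 and 0 to 2, and Runx2 17 to 39 and 7 to 19 (log2 fold change -1.45). The summed level of the 8 was 5.48 to 9.69 CPM in WT and 2.03 to 12.2 CPM in KSR23, most of it from Sox9 (log2 fold change -0.01), and without Sox9 it was 1.24 to 2.44 CPM in WT and 0.266 to 0.593 CPM in KSR23. The part of such cells in the Col9a1 result was not tested.

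Col12a1 and Col14a1, which coat type I fibrils, had log2 fold changes below 0 and were not called in the main comparison. Col12a1 had 12.2, 11.1, 10.4, 9.85 and 10.8 CPM in WT and 8.70, 3.26, 6.64, 7.85 and 8.05 CPM in KSR23, with no overlap (log2 fold change -0.65, 95% interval -1.27 to -0.03, adjusted p = 0.143 by LRT). Col14a1 had 17.5, 9.90, 10.9, 16.0 and 15.9 CPM in WT and 9.80, 5.03, 9.34, 7.24 and 10.8 CPM in KSR23 (log2 fold change -0.73, adjusted p = 0.0944 by LRT). Its groups overlapped, with KSR23 replicate 5 above WT replicate 2. Col14a1 passed in DESeq2 (adjusted p = 0.0467) and with the GC trend removed (-0.86, adjusted p = 0.0355). The other FACIT genes had log2 fold changes of -0.33 (Col20a1), 0.47 (Col16a1), 0.80 (Col19a1) and 0.89 (Col22a1).

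Col18a1 was the one abundant collagen that was higher in KSR23. It encodes the multiplexin of epithelial and vascular basement membranes whose C-terminal fragment is endostatin. It had 50.8, 53.9, 34.4, 50.1 and 39.6 CPM in WT and 103, 113, 50.1, 88.5 and 85.3 CPM in KSR23. In 4 of 5 KSR23 libraries it lay above all WT libraries, and KSR23 replicate 3 lay within the WT range. The log2 fold change was 0.94 (SE 0.29), which is 1.92-fold higher with a 95% interval of 1.30-fold to 2.85-fold (adjusted p = 0.011 by LRT, 0.021 by QLF). The call was lost without WT replicate 5 (adjusted p = 0.0526), with library totals unscaled (0.89, adjusted p = 0.0512), with replicates 1 to 3 alone (0.97, adjusted p = 0.452) and with the GC trend removed (0.72, adjusted p = 0.161). Its transcripts have 60.8% GC, and KSR23 replicate 3 is the library in which high-GC genes were lowest. In WT the order was different. The lowest value, 34.4 CPM, was in replicate 3, where high-GC genes were high (0.531), and replicate 1, where they were low (-0.936), had 50.8 CPM. The part of GC content in the Col18a1 values was not tested. The related gene Col15a1 had 1.73 to 2.69 CPM in WT and 0.508 to 3.21 CPM in KSR23 (log2 fold change -0.46, 95% interval -1.56 to 0.64) and was not called.

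Of 10 epithelial markers 3 were higher, like Col18a1 (Cdh1, Krt20 and Elf3; background 9.73%), and 0 lower, and Cdh1 was lost by QLF (adjusted p = 0.0572). Of the 10 markers 7 had log2 fold changes above 0, and the median was 0.7 against 0.03 for all genes. The log2 fold changes of Epcam, Lgals4 and Cdx1 were -0.44, -0.36 and -0.17, and the summed level of the 10 was 2130 to 4000 CPM in WT and 4620 to 7390 CPM in KSR23. Krt20 averaged 359 CPM in WT and 1670 CPM in KSR23, and without it the sums overlapped at 1740 to 3670 CPM and 3470 to 5230 CPM. Of 10 endothelial markers 3 were lower (Cdh5, Emcn and Egfl7; background 8.76%), 5 of the 10 had log2 fold changes above 0 (Tie1 was at 0.70 and Tek at 0.51), the median was 0.02, and the sums were 212 to 280 CPM in WT and 191 to 258 CPM in KSR23. The part of either cell type in the Col18a1 result was not tested.

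Col28a1, a short beaded chain found around glia of peripheral nerve, was higher at a low level. It had 1.33, 1.10, 1.21, 1.24 and 0.713 CPM in WT and 1.79, 1.23, 2.98, 2.85 and 2.71 CPM in KSR23. In 4 of 5 KSR23 libraries it lay above all WT libraries, and KSR23 replicate 2 was level with WT. The log2 fold change was 1.04 (SE 0.36, adjusted p = 0.0286 by LRT, 0.0487 by QLF). The call was lost without WT replicate 2, 3, 4 or 5 or KSR23 replicate 3, 4 or 5 (adjusted p = 0.052 to 0.108), with replicates 1 to 3 alone (0.75, adjusted p = 0.689) and with the GC trend removed (0.88, adjusted p = 0.0538). It was also lost with the Y-linked share in the fit (0.97, adjusted p = 0.217 by LRT). Of 7 enteric neural and glial markers S100b was lower (48.7 to 0.595 CPM on average), Ret was higher (background 8.76% lower and 9.73% higher) and 5 were not called by LRT, among them the glial gene Sox10. Uchl1, another of these 5, was lower by QLF (adjusted p = 0.0404) and DESeq2 (adjusted p = 0.00783). Of the 7 markers 5 had log2 fold changes below 0, and the median was -0.57 against 0.03 for all genes. The sum of the 7 was 78.5 to 101 CPM in WT and 32.0 to 42.2 CPM in KSR23. Without S100b the sums overlapped (33.2 to 47.2 CPM in WT and 31.4 to 42.1 CPM in KSR23), and the part of these cells in the Col28a1 result was not tested.

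The windows before both higher genes are given for comparison with the lowered ones (Col18a1 at chr10:77166549-77166780, upstream of the more distal of its RefSeq starts, and Col28a1 at chr6:8192618-8192867).
Col18a1: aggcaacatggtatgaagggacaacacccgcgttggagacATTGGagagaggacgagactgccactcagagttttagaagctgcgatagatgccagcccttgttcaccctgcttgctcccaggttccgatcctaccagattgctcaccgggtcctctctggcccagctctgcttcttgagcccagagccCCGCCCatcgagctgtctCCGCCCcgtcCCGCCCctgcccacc
Col28a1: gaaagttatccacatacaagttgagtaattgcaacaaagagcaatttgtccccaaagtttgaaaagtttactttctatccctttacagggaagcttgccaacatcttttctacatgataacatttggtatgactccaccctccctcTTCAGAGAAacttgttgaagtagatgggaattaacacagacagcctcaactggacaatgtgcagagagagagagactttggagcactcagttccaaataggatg
The Col28a1 window holds 1 STAT motif and the Col18a1 window holds none. Of the 35 collagen genes with a window 2 held this motif, and they are Col28a1, which was higher, and Col6a5, which was lower.

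The remaining collagens had low levels and were not called with all libraries. Col7a1, the anchoring fibril chain, had 1.46, 3.50, 2.61, 1.21 and 1.54 CPM in WT and 4.27, 5.19, 2.78, 4.14 and 2.63 CPM in KSR23 (log2 fold change 0.89, 95% interval 0.14 to 1.64, adjusted p = 0.0932 by LRT), and passed without WT replicate 2 (1.21, adjusted p = 0.0178 by LRT). The 4 transmembrane collagens Col13a1, Col17a1, Col23a1 and Col25a1 had log2 fold changes of -0.35, -1.80, -0.43 and 1.08, and Col17a1, which anchors basal keratinocytes, had at most 27 counts in a library and passed without KSR23 replicate 1 (-3.76, adjusted p = 0.026 by LRT). Over all 36 uncalled collagens the 95% interval lay within a 2-fold change in both directions for 10 (Col1a2, Col3a1, Col4a1, Col4a2, Col5a1, Col5a2, Col6a1, Col6a2, Col6a3 and Col8a1). For the others a change of that size lay within the interval in at least 1 direction.

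The genes that act on collagen were then counted by role, and each count is to be read against the 8.76% of all genes called lower and 9.73% called higher by LRT. The median log2 fold change was -0.22 for the genes that modify the chains, -0.31 for procollagen processing, -0.86 for small leucine-rich proteoglycans, 0.35 for the basement membrane, -0.10 for other interstitial matrix, -0.06 for receptors, -0.13 for breakdown and -0.08 for the TGF-beta pathway, against 0.03 for all genes. Of 21 genes that modify and fold the chains in the endoplasmic reticulum (prolyl and lysyl hydroxylases, glycosyltransferases and chaperones) 0 were called by either edgeR test, 1 had an unadjusted p under 0.05 by each, and DESeq2 called 1 higher. That gene was Plod3, a lysyl hydroxylase named here after its values were seen (log2 fold change 1.15 in DESeq2, adjusted p = 0.0391), and it was also called with the GC trend removed (adjusted p = 0.00757 by LRT, 0.0184 by QLF). P4hb, the most abundant of the list, had 631, 3880, 3780, 2520 and 1250 CPM in WT and 3570, 5800, 619, 4050 and 2910 CPM in KSR23. It was lowest in WT replicate 1 and KSR23 replicate 3, the libraries in which high-GC genes were lowest, and the summed list ran from 959 to 4290 CPM in WT and 916 to 6240 CPM in KSR23.

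Among 13 genes that process procollagen and crosslink fibrils, Bmp1 was lower and the other 12 were not called. Bmp1, the protease that removes the C-terminal propeptide of fibrillar collagens, had 11.2, 11, 9.54, 10.1 and 9.95 CPM in WT and 4.32, 3.61, 5.37, 3.06 and 3.58 CPM in KSR23. The groups were far apart, and the log2 fold change was -1.38 (SE 0.28, adjusted p = 2.63e-05 by LRT, 0.0015 by QLF). Its enhancer Pcolce, the most abundant of the list, averaged 43.7 ± 9.12 CPM in WT against 27.1 ± 2.66 CPM in KSR23 (SD, n = 5), which is -0.69 as a log2 fold change. Pcolce missed the threshold in LRT (adjusted p = 0.055) and passed in QLF (adjusted p = 0.04). With replicates 1 to 3 alone Bmp1 gave -1.22 on the log2 scale (adjusted p = 0.238).

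Of 12 small leucine-rich proteoglycans, which bind fibrils and shape them, 4 (33.3%) were lower and 0 higher. Decorin (Dcn) averaged 576 ± 132 CPM in WT against 269 ± 81.2 CPM in KSR23 (SD, n = 5), and its log2 fold change was -1.10 (adjusted p = 0.00315 by LRT). It had 721, 405, 510, 549 and 696 CPM in WT and 283, 141, 364, 262 and 294 CPM in KSR23, without overlap. With replicates 1 to 3 alone it was -1.02 (adjusted p = 0.408 by LRT). Asporin (Aspn, -0.99) and osteoglycin (Ogn, -0.89) were lower as well. Epyc, named after its values were seen, had at most 10 counts in a library. It passed the filter on low counts through WT libraries alone, so its call adds no support to the share of 33.3%. By QLF 2 of the list were called, since Ogn (adjusted p = 0.0574) and Epyc (0.125) were lost, as they were with the replicate block (0.0673 and 0.192). With the Y-linked share in the fit none of Dcn, Aspn, Ogn and Epyc was called (adjusted p = 0.0981 to 0.395 by LRT). With the GC trend removed 7 of the 12 were called lower by LRT. Of 10 fibroblast markers 0 were called by either edgeR test or by DESeq2, and 1 had an unadjusted p under 0.05 by each edgeR test. With the GC trend removed 1 of the 10 was called lower (Gli1, adjusted p = 0.0479 by LRT), and their median was -0.41 against -0.08 for all genes. Of these markers 8 had a log2 fold change below 0, the median was -0.31 against 0.03 for all genes (Dpt was at -0.73 and Tcf21 at -1.10), and their sum was 205 to 280 CPM in WT and 187 to 230 CPM in KSR23.

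In the basement membrane list Sparc was lower and Lama1 higher among 16 genes. Sparc, a collagen-binding matricellular protein, had 1380, 829, 1200, 1080 and 1370 CPM in WT and 477, 556, 690, 469 and 617 CPM in KSR23 (log2 fold change -1.06, adjusted p = 0.00046 by LRT; -0.95 and 0.365 with replicates 1 to 3 alone). Lama1, a laminin chain, rose by 1.42 on the log2 scale, with 1.16 ± 0.495 CPM in WT against 3.13 ± 0.717 CPM in KSR23 (SD, n = 5), and gave 1.37 with replicates 1 to 3 alone (adjusted p = 0.32). Of 17 other interstitial matrix genes the microfibril genes Mfap2 (-1.21), Mfap5 (-1.44) and Mfap4 (-0.76) were lower and thrombospondin Thbs1 (0.97) was higher. With the Y-linked share in the fit Mfap5, Mfap4 and Thbs1 were not called (adjusted p = 0.0681, 0.207 and 0.184 by LRT), and with the replicate block Mfap4 and Thbs1 were not (0.122 and 0.102). Periostin (Postn), the most abundant of that list, was not called (log2 fold change -0.40).

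Among 12 genes that break down collagen or restrain its breakdown 2 were higher and 2 lower. Stromelysin Mmp3 had 0, 0.106, 0.183, 0 and 0.113 CPM in WT and 0.612, 3.39, 5.09, 3.08 and 12.3 CPM in KSR23. All KSR23 libraries lay above WT, and this was the only gene of the lists on collagen handling that was called with replicates 1 to 3 alone (log2 fold change 4.98, adjusted p = 0.00115 by LRT, not called by QLF; 5.91 with all libraries). The interstitial collagenase Mmp13 rose by 1.06 on the log2 scale (10.4 ± 1.9 CPM in WT against 21.8 ± 9.62 CPM in KSR23, SD, n = 5), and KSR23 replicate 1 stayed within the WT range at 8.95 CPM. The inhibitor Timp2 (-1.10) and the lysosomal collagenase Ctsk (-0.87) were lower. Mmp13 and Ctsk were not called with the Y-linked share in the fit (0.61 and -0.95, adjusted p = 0.609 and 0.159 by LRT) or with the replicate block (adjusted p = 0.155 and 0.0966). Timp3, the most abundant of the list, was not called with all libraries (-0.08). Of 15 genes of the TGF-beta pathway, which drives collagen transcription in fibroblasts, only Smad7, its inhibitor, was called (log2 fold change -1.44), and Tgfbi, the most abundant, was not (-0.08). Of 10 collagen receptors and their partners only the platelet receptor Gp6 was called lower, at no more than 7 counts in a library and not with the Y-linked share in the fit (adjusted p = 0.251 by LRT). Gp6 passed the filter on low counts through a WT library alone. The integrin Itgb1 was not called (-0.19).

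**Figure D5:**
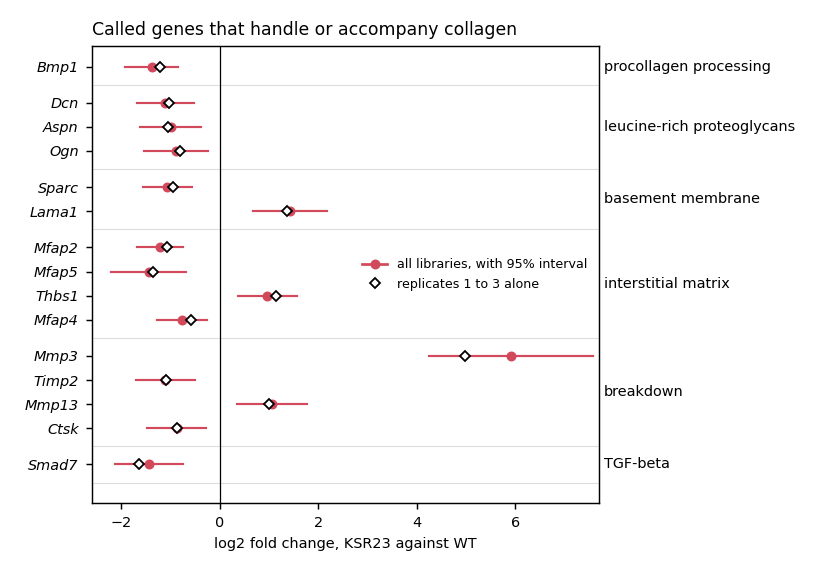
Log2 fold change between KSR23 and WT (horizontal axis) of the called genes from the lists on collagen handling that the naming rule selects, with all libraries (red points with 95% intervals) and with replicates 1 to 3 alone (open diamonds). Bmp1, the proteoglycans, Sparc, the Mfap genes, Timp2, Ctsk and Smad7 lie left of 0, and Lama1, Thbs1, Mmp3 and Mmp13 lie right of it in both sets.

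The markers of other cells were examined across the same libraries, with the same background of 8.76% lower and 9.73% higher. Of 10 smooth muscle markers Acta2 was lower by LRT and lost by QLF (adjusted p = 0.0538), 4 had log2 fold changes above 0 (Myh11 was at 0.61), and the sums were 1710 to 3740 CPM in WT and 1800 to 2400 CPM in KSR23. Of 8 leukocyte markers 2 were lower (Cd52 and Tyrobp) and 1 higher (Lcp1), of 6 mesothelial markers 1 was higher (Upk1b), and of 8 cycling markers 4 were higher (Mki67, Top2a, Ccnb1 and Bub1). With the Y-linked share in the fit neither Upk1b (adjusted p = 0.23 by LRT) nor any of these 4 cycling markers (0.159 to 0.322) was called. With the replicate block Upk1b, Mki67, Top2a and Ccnb1 were not called (adjusted p = 0.0534 to 0.0846 by LRT). Of 6 keratinocyte markers Dsg3 had 0 counts, Trp63 and Krt1 had at most 4, Krt10 was lower, and Krt14 had a log2 fold change of 0.17 (2.47 CPM in WT and 2.78 in KSR23 on average). Of 8 pancreatic acinar markers 5 were lower, with sums of 158 to 270 CPM in WT and 21.6 to 71.0 CPM in KSR23. Among these 5, Sycn and Cela2a passed the filter on low counts through WT libraries alone. The part of these other cells in the collagen results was not tested.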

How the data were processed

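Libraries came from total RNA of whole jejunum by oligo-dT priming, PCR amplification of the cDNA and transposase fragmentation, and were read from a single end. The deposited values are whole-number counts per gene symbol. Per the labels and the study's methods the authors mapped reads to mm10 with TopHat2 2.1.0 and counted those strictly inside gene models with HTSeq 0.6.1p1. The deposited counts are not normalized and still hold the genes of few or 0 counts that the authors removed before their own tests. Reads were not marked by molecular identifiers, multi-mapped reads entered no gene, and the strand setting is not given in the sources used here, so overlapping genes may share counts.

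Library totals (25.5 to 60.9 M counts) were scaled by TMM in edgeR 4.0.16 (R 4.3.3), and the 17632 genes that reached 5 counts in any library were fitted over all 10 libraries, group being the sole term. Genes at an adjusted p under 0.05 (Benjamini-Hochberg over all genes; likelihood ratio test, with the quasi-likelihood F test beside it) are called. Intervals are the estimate ± 1.96 SE. Alternatives were DESeq2 1.42.0, other scalings and filters, replicates 1 to 3 alone, each library left out, a replicate block, a covariate of Y-linked counts and, added after the data were seen, GC-dependent offsets. Scripts were tested on simulated data. Positions, lengths and GC content come from GENCODE M21 (mm10), promoters from RefSeq (GRCm38.p6). The members, lists, ratio pairs and naming rule were chosen with earlier results of these data known. By that rule each library's value is given for collagens with a mean of 20 CPM or more in a group and for called ones, and each other list contributes up to 4 called genes of smallest adjusted p with 5 or more counts in every library of the higher group, and its most abundant gene. Values named beyond it were chosen after they were seen. One further enteric neural and glial marker, beside the 7 counted, is not reported here.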

Additional observations from a re-analysis of the deposited data

Results flagged for a closer look

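Values of the tested collagens and of the 6 ratios were searched for a library far from the other 4 of its group, by the gap to its nearest neighbour as a share of the group's range on the log2 scale. Of 98 groups of 5 values 9 had such a library, where chance gives about 1 in 20, or 4.9. WT replicate 3 was apart in 4 of them. It was low for Col3a1 (382 CPM, against 629 to 718 in the other WT libraries), Col5a2 (18.5 against 28.5 to 33.8), Col6a1 (87.8 against 166 to 196) and Col6a5 (7.52 against 14.6 to 16.6). For Col4a6, WT replicate 5 was low (1.43 against 2.28 to 2.69 CPM), as was KSR23 replicate 4 (0.142 against 0.755 to 1.34 CPM). KSR23 replicate 2 was low for Col12a1 (3.26 against 6.64 to 8.70 CPM). The remaining 2 such values were counts of 0, for Col11a1 in KSR23 replicate 3 (0 CPM against 0.193 to 0.54) and for Col25a1 in WT replicate 2 (0 CPM against 0.294 to 0.605).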

How the results depend on the processing

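The called collagens kept their direction under all 22 alternatives, except that Col6a6 was followed in 21, since it did not pass the filter of 5 or more counts in every library. The 11 uncalled collagens of 20 CPM or more passed the threshold under none. Of the scarcer ones Col14a1 passed in DESeq2 and with GC-adjusted offsets, Col4a5 without KSR23 replicate 3, Col7a1 without WT replicate 2 and Col17a1 without KSR23 replicate 1. The count of called collagens was 7 and moved to 4 with the replicate block, 2 with the Y-linked covariate, and 0 with replicates 1 to 3 alone by either edgeR test, and ranged from 3 to 7 with 1 library left out. Calls over all genes moved from 18.5% to 12.5% with the block, 10.2% with the Y-linked covariate, and 3.36% and 0.812% with replicates 1 to 3 alone by the likelihood ratio and the quasi-likelihood F test, and ranged from 13.5% to 21.6% with 1 library left out. Called higher were 2, which became 1 without scaling factors, with the block and with the Y-linked covariate, 0 with replicates 1 to 3 alone and with GC-adjusted offsets by either test, and 0 to 2 with 1 library left out. Called lower were 5, which became 3 by the quasi-likelihood F test and with the block, 1 with the Y-linked covariate, 0 with replicates 1 to 3 alone by either test, and 2 to 6 with 1 library left out. The causes were not tested.

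Some uncalled values near 0 changed sign. On the log2 scale Col4a2, Col6a1 and Col6a2 were 0.159, 0.277 and 0.128 with the Y-linked covariate, Col6a1 was 0.103 with replicates 1 to 3 alone by either test, and Col5a2 was -0.015 with GC-adjusted offsets by either test. With 1 library left out, Col4a2 ran from -0.279 to 0.13, Col5a2 from -0.014 to 0.221, Col6a1 from -0.197 to 0.059, Col6a2 from -0.166 to 0.184 and Col6a3 from -0.008 to 0.32. The log2 ratio of Col6a3 to Col6a1 was -0.138 with replicates 1 to 3 alone and -0.158 to 0.359 with 1 library left out, that of Col6a1 to Col6a2 ran from -0.262 to 0.274 and that of Col4a1 to Col4a2 from 0.351 to 0.587.

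The replicate numbers are not paired by the data: deviations of same-numbered libraries correlated at -0.548, 0.248, -0.462, 0.113 and 0.215 over genes, and 0 of 5 numbers matched best with itself. Under the block Col28a1, Col6a5 and Col9a1 were not called. Col6a6 and Col9a1 rest on few counts per library.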
